A study of Mus musculus with 22 samples.

Results

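The cytosolic ribosomal protein genes encode the proteins of the ribosomes that work in the cytoplasm. They were taken by symbol from the protein-coding genes in the tables: Rpl or Rps followed by a number, plus Rplp0, Rplp1, Rplp2, Rpsa and Fau, with the Rps6k kinases left out. This gave 84 of 39179 genes, of which 43 encode proteins of the large subunit, 32 proteins of the small subunit and 3 proteins of the P stalk. The other 6 are paralogues of such genes (Rpl3l, Rpl10l, Rpl39l, Rpl22l1, Rpl7l1 and Rps27l). They are labelled tissue paralogues here, although Rpl22l1, Rpl7l1 and Rps27l were present in every sample. The genes lay on 20 chromosomes, with 14 on chromosome 7, 8 on chromosome 17 and 4 on X. No expression value entered the choice.

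RNA-seq counts came from 22 mouse samples of mixed B6x129SvJ background. There were 2 WT and 2 Phf8 KO samples of embryonic stem cells (ESCs), grown out from blastocysts and kept on gelatin with feeder cells, and 3 WT and 3 KO samples of neural progenitor cells (NPCs), taken from embryos and grown as a monolayer. There were also 3 WT and 3 KO samples each of ventral striatum (STR) and prefrontal cortex (PFC) from mice aged 2 months. The KO allele removes exons of the X-linked gene Phf8, which encodes a histone lysine demethylase, and the labels do not say whether samples of a group came from separate clones, litters or animals, so that p-values measure the spread between these samples only. The comparisons asked how the levels of these genes differ between tissues and whether loss of Phf8 changes them.

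Reads assigned to genes ran from 5898286 (WT PFC replicate 3) to 15539811 in a sample. CPM are counts scaled to library size, with TMM factors set within each tissue. Phf8 itself had 57.1 ± 3.41 CPM in WT ESCs and 16.5 ± 4.38 CPM in KO ESCs (SD, n = 2 each), 36.9 ± 1.14 and 13.8 ± 0.738 (SD, n = 3 each) in NPCs, 53.6 ± 3.51 and 20.7 ± 4.70 (SD, n = 3 each) in STR, and 47.5 ± 4.19 and 18.4 ± 3.596 (SD, n = 3 each) in PFC. Every KO sample lay below every WT sample of its tissue. Lists of marker genes were highest in the tissue they were named for. The summed CPM of 7 pluripotency genes was 3900 to 4548 in ESCs and at most 6.85 elsewhere. Some samples stood apart. The summed CPM of 7 fibroblast genes was 3134 and 3883 in replicate 2 of WT and KO ESCs, against 137 and 126 in replicate 1. The oligodendrocyte list was lowest in NPC replicate 2 of both genotypes (196 and 364, against 1664 to 2758 in the other NPC samples). STR KO replicate 1 had the highest sum of hypothalamus genes (167, against 0.641 to 24.8 in the other samples) and the lowest sum of cortex genes in STR (148, against 500 to 702).

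A ribosome has a small subunit, which reads the mRNA, and a large subunit, which joins amino acids. Most ribosomal proteins are present in a single copy per ribosome, and the cell makes them in matched amounts. Their mRNAs begin with a C followed by a run of pyrimidines, the 5′ terminal oligopyrimidine (TOP) motif, through which the mTOR pathway controls their translation as a group. The genes are short and strongly expressed, and their mRNAs have been copied back into the genome many times. The tables bear on this directly, since reads that aligned to more than 1 place were counted on no gene. Such reads were 43.2% to 45.5% of the reads that HTSeq reported in ESCs, 33.2% to 34.3% in NPCs and 7.62% to 8.90% in brain.

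To show how far copies limit what a count can hold, each gene's main coding transcript was divided into 50-base windows and each window was looked up in the transcripts of all other genes of the GENCODE M21 annotation. The search did not separate copies from other genes whose transcripts overlap at the same locus. The gene that shared most windows with Rpl35 was Wdr38 (58.97%), and with Rps10 it was RPS10-NUDT3 (50.84%). The median gene had 44.97% of its windows in no other gene. This share was under 50% for 49 of the 84 genes, under 25% for 24, and at least 90% for 9. It was 100% for Rpl3l and Rpl39l, 92.1% for Rpl8, 83.6% for Rpl4, 7.87% for Rpl10, 4.91% for Rpl35 and 1.35% for Rps27. The first 60 coding bases of pairs of genes show both ends of this range, and capitals mark the bases that differ within a pair. The sequences are the GENCODE M21 coding sequences, read 5′ to 3′.
Rpl39: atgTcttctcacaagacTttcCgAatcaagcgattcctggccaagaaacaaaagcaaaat
Rpl39l: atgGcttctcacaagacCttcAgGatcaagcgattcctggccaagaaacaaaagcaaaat
Rpl10: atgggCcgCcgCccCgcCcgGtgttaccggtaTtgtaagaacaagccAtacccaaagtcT
Rpl10l: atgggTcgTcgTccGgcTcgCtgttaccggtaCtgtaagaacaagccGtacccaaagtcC
Rps27: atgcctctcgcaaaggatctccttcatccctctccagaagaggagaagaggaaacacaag
Rps27rt: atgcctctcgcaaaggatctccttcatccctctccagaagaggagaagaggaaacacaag

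Over their whole coding sequences, Rpl39 and Rpl39l differed at 23 of 153 bases and Rpl10 and Rpl10l at 98 of 642, so that reads over such bases can be told apart. Rps27 and Rps27rt, a gene outside the symbol rule, differed at 0 of 252 coding bases. Rps27l, a p53-inducible paralogue of Rps27, differed from it at 60 of 252.

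The bases around the transcription start were read to show the TOP motif, since it is the feature these genes share in regulation. RefSeq start sites on GRCm38.p6 were matched for 64 of the 84 genes. In the 30 bases centred on the start, 4 forms of a C followed by pyrimidines were searched. CTTTT stood on the sense strand in 10.3% of the genes of the ribosome proper and in 3.68% of all genes, CTTTC stood in 29.3% and 4.76%, CTTCC in 22.4% and 7.83%, and CTCTT in 22.4% and 4.68%. At least 1 of them stood there in 29 of 58 genes of the ribosome proper (50%) and in 2 of 6 tissue paralogues (33.3%), against 4780 of 27025 genes in all (17.7%). On the opposite strand the shares with any of the motifs were 20.7%, 0% and 18.3%. The motifs overlap each other, so a gene can hold several. A motif in this window does not show where transcription started in these samples. In the windows printed here capitals mark the pyrimidine run that holds the motif.
Rps6, chr4:86857353-86857382, minus strand: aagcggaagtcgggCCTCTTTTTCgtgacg
Fau, chr19:6057932-6057961, plus strand: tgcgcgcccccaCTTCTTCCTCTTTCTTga
Rplp2, chr7:141447636-141447665, plus strand: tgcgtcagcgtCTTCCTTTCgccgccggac
Rpl15, chr14:18270972-18271001, minus strand: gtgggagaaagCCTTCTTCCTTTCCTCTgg
Rpl39l, chr16:10170213-10170242, plus strand: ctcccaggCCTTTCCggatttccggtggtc
Rpl10l, chr12:66284387-66284416, minus strand: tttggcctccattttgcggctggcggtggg

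Rps6 (the small subunit protein phosphorylated by S6 kinase), Fau, Rplp2 and Rpl15 are shown because they held long runs across or beside the annotated start. The window of Rpl10l, an intronless copy of Rpl10, held none of the 4 motifs, and neither did that of Rpl10. Rpl39l held a motif in a short run. Its parent Rpl39 held none of the 4 motifs, although its window held a pyrimidine run without them.

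The summed share of counts on the 84 genes was highest in ESCs and lowest in PFC. In WT it was 1.53% and 1.45% in the ESC samples, 0.678%, 0.700% and 0.676% in NPCs, 0.265%, 0.284% and 0.295% in STR, and 0.241%, 0.243% and 0.301% in PFC. In KO it was 1.57% and 1.54% in ESCs, 0.692%, 0.671% and 0.660% in NPCs, 0.277%, 0.288% and 0.263% in STR, and 0.239%, 0.246% and 0.247% in PFC. ESCs, NPCs and brain did not overlap, whereas STR and PFC overlapped in WT. In ESCs both KO samples were above both WT samples. The share in WT ESCs was 2.17 times that in WT NPCs, and 2.31 times in KO. The share in WT NPCs was 2.61 times that in WT PFC. In bulk RNA, more cells of a type and more RNA per cell cannot be told apart. Large subunit genes held 0.757% of the counts in WT ESCs, 0.329% in WT NPCs, 0.142% in WT STR and 0.132% in WT PFC, and small subunit genes held 0.571%, 0.283%, 0.111% and 0.104%. The 3 P stalk genes held 0.107%, 0.0499%, 0.0172% and 0.0157%. The 77 mitochondrial ribosomal protein genes, whose products form the ribosome inside mitochondria, had a narrower range between tissues, from 0.411% in WT ESCs and 0.263% in NPCs to 0.328% in STR and 0.303% in PFC. The share of reads that aligned to several places was also highest in ESCs and lowest in brain. The largest count per exon base of any gene was 34.9 to 85.7 in cells and 1.75 to 2.49 in brain. Between PFC samples total counts differed up to 1.72-fold and counts on these genes up to 1.39-fold. The part of these features in the differences of share was not tested, and tissue and table preparation cannot be told apart between brain and cells.

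**Figure D1:**
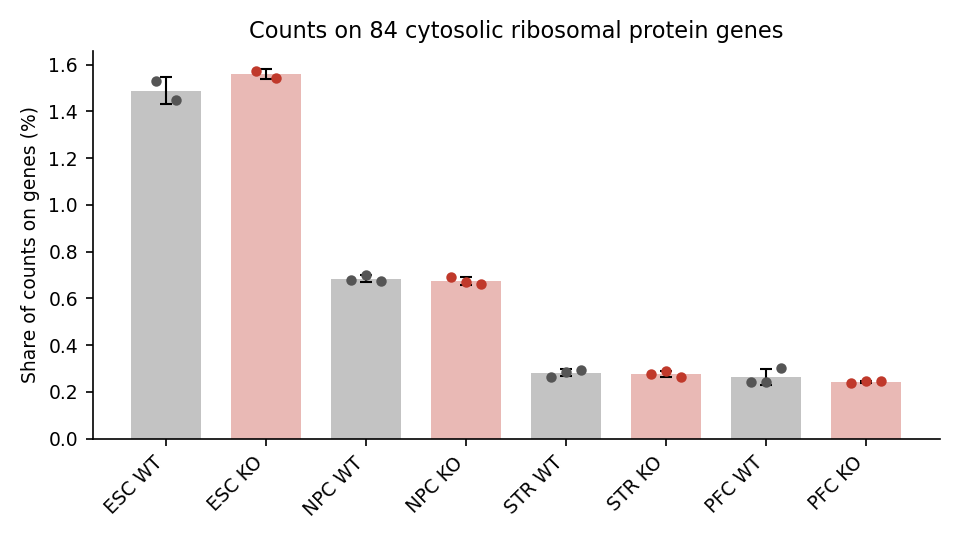
Share of all counts on genes that fell on the 84 cytosolic ribosomal protein genes (%), for WT (grey) and Phf8 KO (red) samples of each tissue. Bars are means, error bars are SD and points are samples (2 per group in ESCs, 3 elsewhere). ESC samples lay between 1.45% and 1.57%, NPC samples between 0.660% and 0.700%, and brain samples between 0.239% and 0.301%.

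Levels between genes were compared per length, as RPKM over the union of a gene's exons, with library sizes set within each tissue. In WT ESCs the highest were Rpl4 (1213 ± 117 RPKM, SD, n = 2) and Rpl8 (1151 ± 21.2), both large subunit proteins, and Rplp1 (665 ± 36.9) and Rps15 (469 ± 27.7) were also among the 5 highest. Rpl4 and Rpl8 could not be placed in order, since their difference was below the SD of Rpl4. The lowest were Rpl35 (0.984), Rps27 (1.12), Rpl23a (1.26), Rpl3l (1.32) and Rpl24 (2.54). The median over the 84 genes was 28.2 RPKM in WT ESCs, 11.1 in WT NPCs, 10.2 in WT STR and 8.89 in WT PFC. In WT NPCs Rpl8 (491), Rpl4 (414) and Rplp1 (357) were the highest, and Rps15 (279) was among the 5 highest.

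In the brain the top of the list changed. Rplp1, which with Rplp2 forms the flexible arms of the stalk that bind elongation factors, was highest in WT STR (118 ± 14.6 RPKM, SD, n = 3) and in WT PFC (110 ± 27.2, SD, n = 3). It was followed by Rps15 (110 in STR and 103 in PFC), Rpl4 (96.9 and 92.7) and Rpl8 (89.4 and 84), and neighbours in this order differed by less than their SD in PFC from Rplp1 to Rpl8. The lowest in both regions were Rpl10l, Rpl39l, Rpl3l, Rpl24 and Rps13, from 0 to 1.01 RPKM in STR and 0 to 0.881 in PFC. The highest gene was 43.1 times the median gene in WT ESCs and 12.3 times in WT PFC. The part of the lower largest count per exon base in brain, given above, was not tested. By raw count Rpl4 was first in all 22 samples, with 26818 to 35679 reads in ESCs, 10198 to 12469 in NPCs and 1328 to 1605 in brain.

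Genes with more of their windows in no other gene had higher levels. In WT ESCs the 35 genes with at least 50% of their windows in no other gene had a median of 74.1 RPKM, against 17.5 for the other 49. The medians were 32.7 and 5.90 in NPCs, 18.4 and 8.90 in STR, and 16.8 and 7.93 in PFC. Across the 84 genes Spearman's rho between RPKM and the share of such windows was 0.461 in WT ESCs, 0.422 in NPCs and 0.281 in both brain regions, where the points share a library and length enters both measures. Over the 78 genes other than tissue paralogues, the SD of log2 RPKM was 2.37 in WT ESCs and fell to 2.00 after division by that share, and 1.64 and 1.54 in PFC. Levels per length remained unequal after this division.

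**Figure D2:**
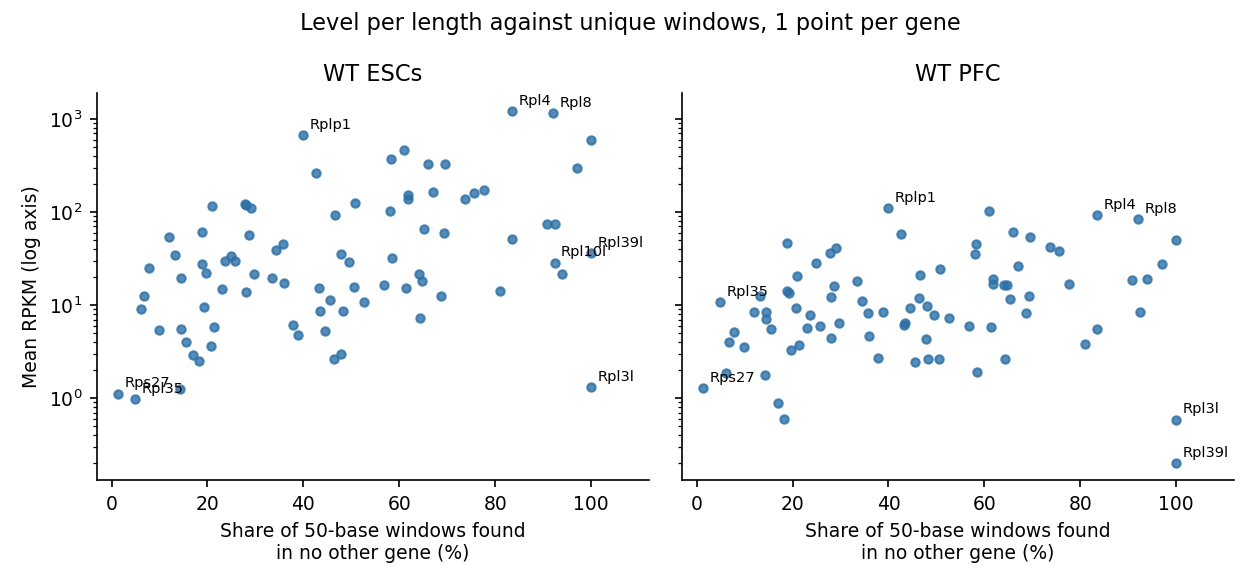
Mean RPKM (log axis) of each gene against the share of its 50-base windows found in no other gene (%), in WT ESCs (left) and WT PFC (right). Each point is a gene, and Rpl10l is absent at right because its RPKM was 0. Rpl4 and Rpl8 sit at the upper right in ESCs and Rps27 at the lower left, whereas Rpl3l is low with all of its windows unique.

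The copies themselves took reads. The annotation has 230 pseudogenes named after 54 of these genes, and they held 0.194% of the counts in WT ESCs, 0.0974% in WT NPCs, 0.0364% in WT STR and 0.0321% in WT PFC. A pseudogene was above its parent in 16 cases in ESCs and NPCs of either genotype, in 8 in the WT brain regions and in 10 in the KO brain regions. In WT ESCs Rpl14-ps1 had 496 CPM against 207 for Rpl14, Rpl3-ps1 had 282 against 61.6 for Rpl3, Rps16-ps2 had 151 against 41.0 for Rps16, and Rpl19-ps11 had 30.1 against 3.74 for Rpl19. In WT STR and PFC Rpl14-ps1 was close to its parent, at 41.7 against 42.9 CPM and 37.2 against 40.1 CPM. Reads of a parent and of a near-identical copy cannot be told apart with certainty in such tables.

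In NPCs relative to ESCs, nearly all cytosolic ribosomal protein genes were lower. In WT, 75 of the 84 genes fell and 0 rose at an FDR under 0.05 (edgeR's quasi-likelihood test, Benjamini-Hochberg adjustment over 15938 genes). Among all genes tested 71.2% were called in this comparison, 34.6% up and 36.6% down. The median log2 fold change was -1.07 over the 84 genes and -0.02 over all genes. The ESC and NPC samples did not overlap for 83 of the 84, all lower in NPCs, where 83.4% of all genes did not overlap in either direction. With KO samples, which the WT fit does not use, 75 of 83 genes fell and 0 rose (71.1% of all genes called), the median was -1.16, and 71 were called down in both genotypes. Rpl35 was the gene not tested in KO. In WT, Rpl35 and Rps27 passed the filter through their ESC counts only, so their fall follows from passing it. The paralogues Rpl10l, Rpl39l and Rpl3l did so in both genotypes. The counts given here and below include these genes. Without WT ESC replicate 2, which held the fibroblast genes, a single WT ESC sample was left, too few for a count to be read. Without WT NPC replicate 2, 75 genes fell in WT, and the share of all genes called in that fit is not given here.

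Large subunit genes fell in 37 of 43 cases. Rpl4 went from 2600 and 2269 CPM in the 2 WT ESC samples to 842, 846 and 806 in the 3 WT NPC samples, and so fell by 1.499 on the log2 scale (SE 0.10, adjusted p = 0.000187 by edgeR). Rpl8, part of the peptidyl transferase region, went from 1585 and 1544 to 660, 695 and 648 CPM (log2 fold change -1.18). The log2 fold changes of Rpl6, Rpl14 and Rpl7, also among the 10 smallest adjusted p-values, were -1.39, -1.10 and -1.10. These levels lay in narrow ranges within each group, well apart between the groups.

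Small subunit genes fell in 29 of 32 cases. Rps20 went from 322 and 286 CPM in WT ESCs to 130, 127 and 125 in WT NPCs (log2 fold change -1.21). Rps27a and Fau are made as fusions to ubiquitin and to a ubiquitin-like protein, which are cut off after translation, and their log2 fold changes were -1.52 and -1.22. All P stalk genes fell. Rplp0, the base of the stalk, went from 636 and 604 CPM to 301, 188 and 301 (log2 fold change -1.18), Rplp1 from 345 and 319 to 172, 184 and 178 (-0.85), and Rplp2 from 126 and 120 to 55.2, 59.6 and 55.7 (-1.06). Within WT NPCs replicate 2 was lowest for Rplp0 and highest for Rplp1 and Rplp2.

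The genes not called were Rpl36a (FDR 0.0504 in edgeR's quasi-likelihood test), Rpsa, Rps23, Rpl24, Rpl23a, Rpl34, Rps3a1, Rpl29 and Rpl27a. Rpl27a was the only gene with a higher estimate in WT NPCs (log2 fold change 0.27), at 56.0 and 62.5 CPM in ESCs and 73.9, 58.4 and 73.9 in NPCs. Its groups overlapped. With NPC replicate 2 left out its FDR was 0.0262 in WT and 0.0404 in KO (edgeR), higher in NPCs in both. Of the 35 genes with at least 50% unique windows 34 fell, with a median log2 fold change of -0.94, and of the other 49 genes 41 fell, with a median of -1.11. The 35 include Rpl10l, Rpl39l and Rpl3l, and the 49 include Rpl35 and Rps27, whose fall follows from passing the filter. Values without them are not given here.

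All 6 tissue paralogues fell in WT NPCs. Rpl10l and Rpl39l, known from the testis, and Rpl3l, known from muscle, passed the filter through their ESC counts only, so their difference follows from passing it. Rpl10l (GRCm38 chromosome 12, 66283379 to 66284401, minus strand) had 386 and 343 counts in WT ESCs, 364 and 253 in KO ESCs, 1 in WT NPC replicate 1, and 0 in the other 17 samples. A count of 0 allows up to 3 reads per sample. The WT ESC level was 1206 times the WT NPC level (95% counting interval 215.7 to 47680), and the KO ESC level was at least 340-fold higher than that of KO NPCs, against a floor of 3 counts over the group. Rpl39l (chromosome 16, 10170226 to 10174911, plus strand) had 360 and 390 counts in WT ESCs, 350 and 332 in KO ESCs, 1 in each NPC genotype, and 0 to 4 in each brain sample. Its WT ratio of ESCs to NPCs was 1240 (counting interval 222 to 49050). Rpl3l had 23 and 32 counts in WT and 28 and 22 in KO ESCs, 0 to 2 per NPC sample, and 1 to 13 per brain sample. Its WT ratio was 45.5 (12.01 to 385). These intervals cover counting error only.

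In ESCs both Rpl10l and Rpl39l were present beside their parents. Rpl10l had 28.6 ± 4.97 RPKM and Rpl10 24.8 ± 3.63 (SD, n = 2 WT ESC samples), with 92.4% and 7.87% of windows unique, and divided by that share they were at 30.9 and 315. Rpl39l had 35.96 ± 1.25 and Rpl39, a short protein of the exit tunnel in the large subunit, 50.7 ± 5.21, or 36 and 60.8 after the same division. In WT NPCs Rpl10 was 9.62 ± 2.13 RPKM and Rpl39 32.7 ± 2.95 (SD, n = 3), while the paralogues were at 0.0232 and 0.0333. The other 3 paralogues were present in every sample. Rpl7l1 fell to NPCs by 1.36 on the log2 scale, Rpl22l1 by 0.70 and Rps27l by 0.65. In WT PFC Rpl22l1 was 10.9 ± 1.76 RPKM against 38.0 ± 2.18 for Rpl22, and Rpl7l1 18.5 ± 0.595 against 20.9 ± 4.14 for Rpl7 (SD, n = 3). Among the other parents, Rpl7, Rpl22, Rpl26 and Rps4x fell in WT NPCs by 1.10, 0.73, 1.07 and 0.85 on the log2 scale. Rps27l had 172 ± 9.24 RPKM in WT ESCs against 1.12 ± 0.437 for Rps27 (SD, n = 2), whose unique windows are the fewest. Rps27rt, with the same coding sequence as Rps27, had 23 and 26 counts in WT ESCs, where Rps27 had 10 and 20.

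**Figure D3:**
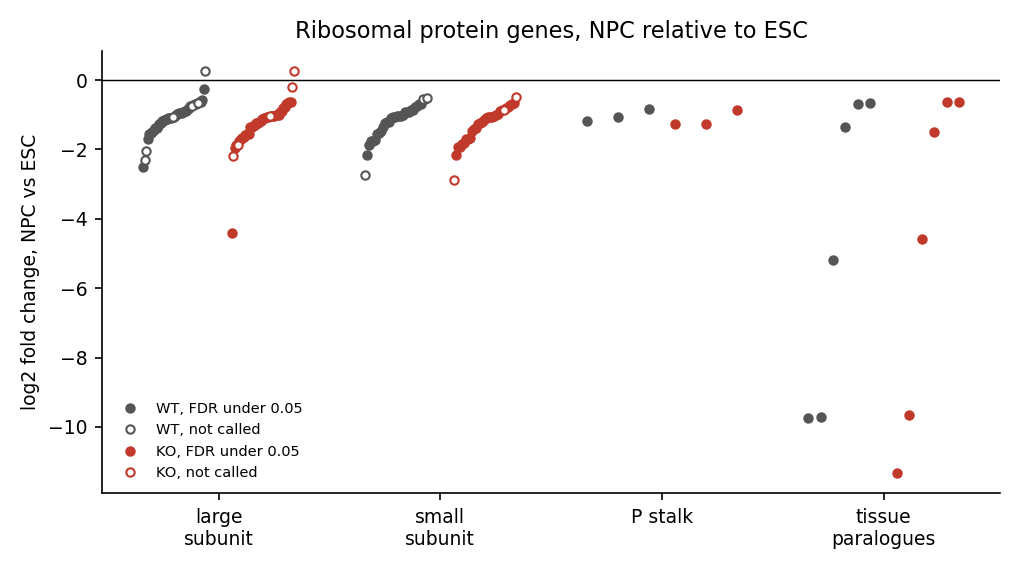
The log2 fold change of NPCs relative to ESCs for each ribosomal protein gene, in WT (grey) and Phf8 KO (red), ordered by size within each class. Filled points had an FDR under 0.05 and open points did not. All filled points are below 0. The lowest points are the paralogues Rpl39l, Rpl10l and Rpl3l in both genotypes, whose fitted size depends on the prior count because NPC counts were at or near 0, and Rpl34 in KO (-4.42).

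A few genes differed widely among NPC samples of a genotype. They were chosen after their values were seen, as genes with at least 30 counts in the highest sample of a group and a highest CPM more than 3 times the lowest: 4 in WT and 3 in KO NPCs, and 0 in the other 6 groups. Rps3a1, a small subunit protein (GRCm38 chromosome 3, 86137940 to 86142702), had 34, 35 and 636 counts in WT NPCs and 34, 31 and 591 in KO NPCs. Rpl29 (chromosome 9, 106429454 to 106431568) had 19, 24 and 185 in WT and 27, 17 and 182 in KO. Both were high in replicate 3 only, in either genotype. Rpl34 (chromosome 3, 130726831 to 130730398) had 48, 51 and 560 counts in WT and 38, 62 and 51 in KO, so that it was high in a single NPC sample. Rpl3, a large subunit protein close to the catalytic centre (chromosome 15, 80077791 to 80091868), had 35, 73 and 352 in WT and 32, 376 and 320 in KO. Its WT values were graded, and replicate 2 was high in KO only.

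The same genes lay in a single range in ESCs, with 1303 to 1570 counts for Rps3a1, 815 to 1178 for Rpl34, 703 to 847 for Rpl3 and 229 to 355 for Rpl29. Rps3a1, Rpl34 and Rpl29 were among the genes not called between WT ESCs and NPCs, and Rpl34 was called in KO (log2 fold change -4.42, FDR 2.53e-05 in edgeR), where no NPC sample was high. In brain, replicate 3 of the KO was lowest in each region for Rpl34 (15.4 CPM in STR, against 22.3 to 24.5 in the other STR samples, and 14.9 in PFC, against 18.2 to 24.3). The same held for Rps3a1 (35.4 in STR, against 39.1 to 46.9, and 29.2 in PFC, against 33.9 to 48.1). A pseudogene also split between samples. Rps13-ps2 had 239, 221 and 0 counts in WT NPCs and 212, 2 and 0 in KO NPCs, and Rps13-ps1 had 52, 1 and 1 in WT STR and 39, 1 and 0 in WT PFC, with 34 to 42 in the KO brain samples. In WT, Rps13-ps1 thus took the same pattern over replicate numbers in both regions. In NPCs it had 196, 181 and 529 counts in WT and 217, 376 and 423 in KO, higher where Rps13-ps2 was at 0 to 2. Same-numbered NPC samples of the 2 genotypes deviated together across all genes, and the cause of the split was not tested.

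**Figure D4:**
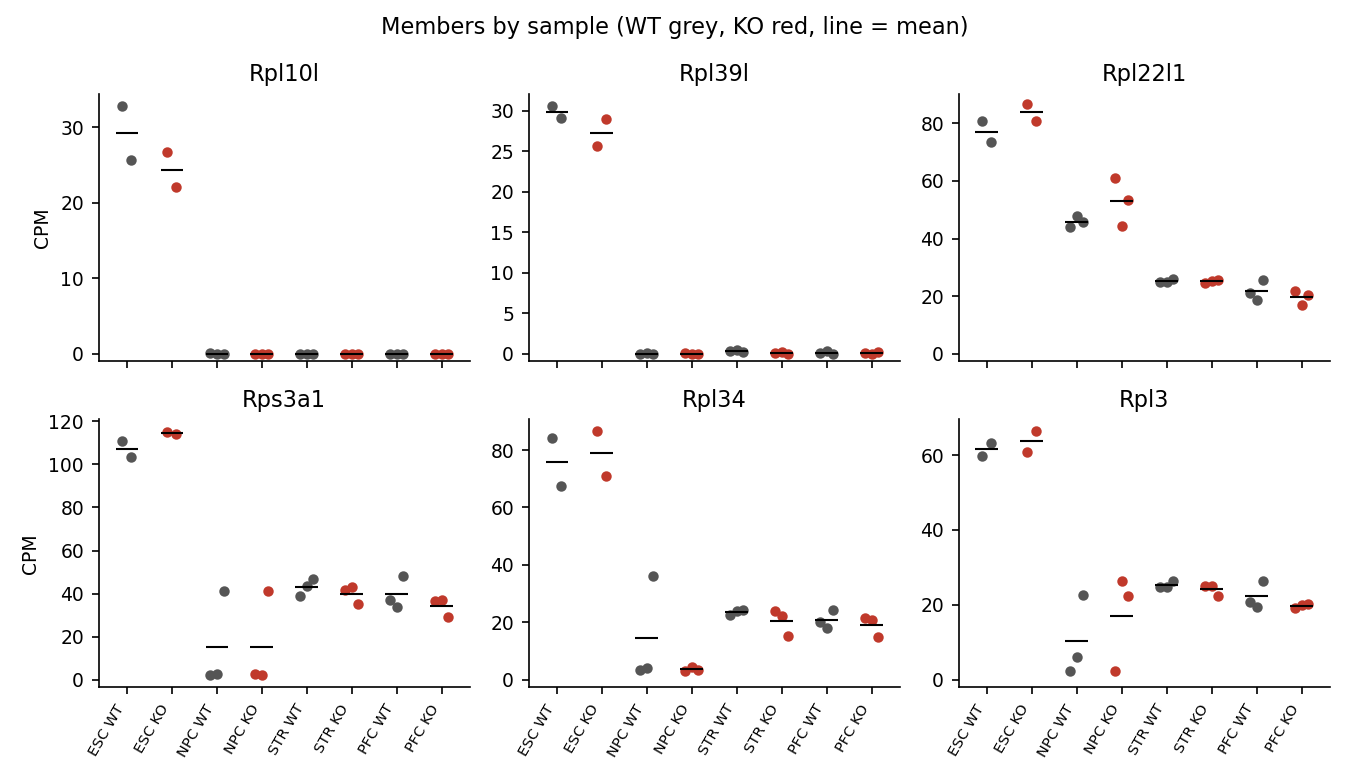
CPM of 6 genes in each sample of WT (grey) and Phf8 KO (red) groups, scaled within each tissue, with a line at the group mean. Rpl10l and Rpl39l lie at 22.1 to 32.8 CPM in ESCs and at most 0.535 elsewhere, and Rpl22l1 declines from ESCs to brain. Rps3a1, Rpl34 and Rpl3 each spread widely among NPC samples, with graded values for Rpl3 in WT.

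Other genes of protein synthesis were lower in NPCs than in ESCs too. Their lists were named for a role and chosen with earlier results of these data known. The list of translation factors also holds other genes, such as Npm1. Of its 35 genes tested, 34 fell and 0 rose in WT NPCs (median log2 fold change -1.16). Among them were Npm1 (-3.07), which helps to assemble ribosomes, Eif2s1 (-1.79), Pabpc1 (-1.76), which binds poly(A) tails, and Eif3k (-1.69). Of 39 ribosome assembly genes 36 fell and 1 rose (median -1.64), with Ncl, which encodes nucleolin, at -2.38, Pno1 at -2.23 and Ipo5 at -1.64. Of 76 mitochondrial ribosomal protein genes 47 fell and 5 rose (median -0.52), and Mrpl15 was at -2.07. Of 22 genes of the mTOR pathway and TOP control 12 fell and 5 rose (median -0.39), including Eif4ebp1 at -3.15, an inhibitor of cap-dependent translation, and Deptor at -4.47. Of 14 genes of the p53 response to ribosomal stress 6 fell and 2 rose (median -0.11). Among ribosomal proteins outside the symbol rule, Rack1 fell by 1.33 on the log2 scale and Rpl36al by 1.26. The share called over all genes was 71.2%, as above.

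In WT PFC relative to WT NPCs most of the genes were lower again, but a set of 13 was higher. Of 79 genes tested, 13 rose and 52 fell (FDR under 0.05, edgeR's quasi-likelihood test), where 77.1% of all genes were called, 40% up and 37.1% down. The median log2 fold change was -1.04 over these genes and 0.04 over all genes. With KO samples 15 rose and 51 fell of 80 tested (81.2% of all genes called), and 63 were called in the same direction in both genotypes. Brain and cultured cells differ in how the tables were made as far as the names of the tables show, since those of the cultured cells alone carry a mark for unstranded counting. The largest count per exon base of any gene was 1.75 to 2.49 in brain and 34.9 to 85.7 in cells. The handling of duplicate reads is not given in the sources used here, and tissue and table preparation cannot be told apart in this comparison.

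Among the genes that fell, Rps16 had 20.4, 19.3 and 25.9 CPM in WT NPCs and 2.05, 2.89 and 2.26 in WT PFC (log2 fold change -3.48). Rps27l went from 88.1, 85.2 and 84.7 to 12.9, 13.4 and 14.9 (-2.97), and Rpl39 from 42.3, 50.6 and 48.0 to 7.73, 7.51 and 8.51 (-2.89). These groups lay far apart. Rps3 (-2.67), Rps9 (-2.37), Rps20 (-2.21), Rpl23 (-1.89) and Rpl22 (-1.62) were also among the 10 smallest adjusted p-values. The stalk genes Rplp0, Rplp1 and Rplp2 were at -2.11, -2.02 and -1.44. The paralogues Rpl22l1 and Rpl7l1 were at -1.40 and -0.91. Rpl10l, Rpl39l, Rpl3l, Rpl24 and Rps27 did not pass the filter.

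Rpl35, a protein at the exit of the peptide tunnel (GRCm38 chromosome 2, 39001580 to 39005624), showed the widest change upwards. It had 6, 7 and 7 counts in WT NPCs and 97, 118 and 100 in WT PFC (log2 fold change 4.45, SE 0.30, FDR 4.55e-06 in edgeR), and 12 and 19 in WT ESCs. STR had 105 to 113 counts. Rpl35 and Rpl23a did not pass the filter in NPCs alone, and passed it here through their PFC counts. Their rise therefore follows from passing it. Rpsa, the small subunit protein also known as the laminin receptor, had 4.77, 5.81 and 6.01 CPM in WT NPCs and 32.1, 32.1 and 49.7 in WT PFC (2.46). Rpl19 (2.32), Rps25 (2.29), Rps6 (1.98), Rps28 (1.74), Rpl36 (1.45), Rpl21 (1.17), Rpl36a (1.10), Rpl23a (0.89), Rps12 (0.69) and Rps15a (0.61) also rose. The median share of unique windows was 19.3% in the 13 genes that rose, 53.8% in the 52 that fell and 31.2% in the 14 not called. Rps15a, at 93.9%, was the exception among those that rose, and its windows came from a transcript of 5130 bases.

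Of the translation factors 31 of 36 fell and 1 rose in WT PFC, where 77.1% of all genes were called, as above. Eef1a2, the elongation factor form of mature neurons, rose by 9.60 on the log2 scale, and Eef1a1, the form of most other cells, fell by 3.38. Of 39 ribosome assembly genes 23 fell and 3 rose, and of 76 mitochondrial ribosomal protein genes 21 fell and 16 rose (median log2 fold change -0.08). Of 41 pseudogenes tested 22 fell and 12 rose. Of 14 p53 response genes 11 fell and 1 rose, and of 22 mTOR pathway genes 10 fell and 5 rose.

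STR and PFC were close to each other. In WT 1 of 80 genes, Rpl35a, was higher in STR at an FDR under 0.05 and 0 were lower, where 24.4% of all genes were called in this comparison. It had 116, 87 and 87 counts in STR and 70, 92 and 50 in PFC, or 13.4, 11.6 and 12.04 CPM against 8.45, 8.85 and 8.68, and the log2 fold change was 0.47 (SE 0.15, FDR 0.0413 in edgeR). The groups did not overlap in CPM, but the FDR was between 0.0675 and 0.164 in each of the 6 fits that left out a sample. Next were Rpl31 (log2 fold change 0.45, FDR 0.0548), Rps15a (-0.28, FDR 0.0551), Rpl22 (-0.22, FDR 0.0667) and Rps23 (0.61, FDR 0.0782), by the same edgeR test. The median log2 fold change was 0.10, with 68 of 80 genes higher in STR, and 0.01 over all genes. It depended on the WT PFC samples: it was 0.24 without replicate 3, the shallowest library, in which these genes were high, 0.01 without replicate 2 (42 of 80 higher) and 0.06 without replicate 1 (53 of 80 higher).

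Same-numbered STR and PFC samples deviated together in both genotypes, so the number was also fitted as a block. With the block 5 genes were called in WT, Rpl35a, Rpl31 and Rpl10a higher in STR and Rps15a and Rpl22 lower, where 34.7% of all genes were called. In KO, 4 of 80 genes were higher in STR and 0 lower (27.7% of all genes called), all of the small subunit. Rps9 had 74.5, 77.0 and 69.8 CPM in KO STR and 60.3, 57.5 and 61.5 in KO PFC, with no overlap (log2 fold change 0.25, SE 0.07, adjusted p = 0.0268 by edgeR). Rps19 was at 0.27 (FDR 0.0475 by edgeR). With the block 3 of these genes were called, Rps9 among them (30.6% of all genes called). Without STR KO replicate 1, which had the hypothalamus genes, 2 genes were called, and without PFC KO replicate 1 or 2, 0 were. The shares of all genes called in those fits are not given here. Rps9 missed the threshold in each fit that left out a sample (FDR 0.0545 to 0.121 by edgeR) other than that without STR KO replicate 3. None was called in both genotypes, and DESeq2 called 0 in either, where it called 22.4% of all genes in WT and 23.6% in KO. Unadjusted p was under 0.05 for 7 of 80 genes in WT, where it was for 34.9% of all genes, and for 16 of 80 in KO, where it was for 38.8% (edgeR).

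Loss of Phf8 was compared with WT in each tissue, with no account taken of the replicate number. By edgeR, 0 of 84 ribosomal protein genes tested were called in ESCs, where 0% of all genes were. In NPCs 0 of 78 were called (0.00697% of all genes), in STR 0 of 80 (0% of all genes) and in PFC 0 of 80 (0.638% of all genes). These counts of 0 are near the background. In each tissue 0 of them had an unadjusted p under 0.05 in edgeR, which 1.13% of all genes had in ESCs, 3.03% in NPCs, 8.7% among STR samples and 11.2% among PFC samples. DESeq2 called 0 as well, where its calls took 0.0199% (ESCs), 0.0348% (NPCs), 0.342% (STR) and 1.28% (PFC) of all genes. Phf8 itself was called in NPCs (FDR 0.0285) and PFC (FDR 0.00193) and not in ESCs (FDR 1) or STR (FDR 0.0956), by the same edgeR test. Rpl10l, Rpl39l and Rpl3l did not pass the filter in NPCs, STR or PFC, Rpl24 did not in STR and PFC, and Rpl23a, Rpl35 and Rps27 did not in NPCs.

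In ESCs the median log2 fold change of KO relative to WT was 0.06 over the 84 genes and 0.01 over all genes, with 67 of the 84 genes higher in KO. The KO and WT samples did not overlap for 19 genes higher and 2 lower in KO, where 23.8% of all genes did not overlap in either direction. Rpl30 had the smallest p, with 83.95 and 94.4 CPM in WT and 101 and 105 in KO (log2 fold change 0.20, 95% interval -0.06 to 0.46). Rpl37 was at 0.34 (-0.14 to 0.82) and Rpl32 at 0.14 (-0.06 to 0.35), while Rpl10l was at -0.26 (-0.77 to 0.25), Rpl39l at -0.13 (-0.45 to 0.19) and Rpl17 at -0.27 (-1.04 to 0.49). Replicate 2 of both genotypes had the high fibroblast genes, and the fit took no account of the replicate number. With the number as a block, Rpl37 (log2 fold change 0.34, FDR 0.0337) and Rpl30 (0.20, FDR 0.0379) were called by edgeR, where 3.4% of all genes were. Unadjusted p was then under 0.05 for 17 of the 84 genes (edgeR). The share of all genes at that threshold in the blocked fit is not given here, so the 17 have no background. The block was not taken as the design, as set out below.

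In NPCs the median was -0.02, with 34 of 78 genes higher in KO, and 1 gene higher and 3 lower did not overlap (8.33% of all genes). Same-numbered NPC samples of the genotypes deviated together, and the values in this paragraph took no account of that. Rpl34 was lower by 2.01 on the log2 scale (95% interval -4.29 to 0.26) through the single high WT sample described above. Rplp2 was at -0.16 (-0.34 to 0.02), with 55.2, 59.6 and 55.7 CPM in WT and 48.7, 53.1 and 50.8 in KO. These did not overlap. Rps10 was at -0.25 (-0.61 to 0.11), Rpl15 at 0.14 (-0.06 to 0.34), Rpl22l1 at 0.21 (-0.09 to 0.51) and Rps2 at 0.24 (-0.13 to 0.62).

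In STR the median was -0.02, with 28 of 80 genes higher in KO, and 0 genes higher and 5 lower did not overlap (13.4% of all genes). Rpl7l1 was at 0.15 (95% interval -0.04 to 0.33), Rpl11 at 0.33 (-0.13 to 0.78) and Rps16 at 0.20 (-0.39 to 0.78). Rpl5, which with Rpl11 and the small 5S RNA binds Mdm2 under ribosomal stress, was at -0.44 (-1.01 to 0.14), Rpl31 at -0.25 (-0.58 to 0.08) and Rplp2 at -0.14 (-0.37 to 0.08). Rpl5 had 10.5, 10.3 and 7.61 CPM in WT and 8.53, 7.91 and 4.47 in KO, and its groups overlapped. Rplp2 had 30.2, 31.0 and 29.3 in WT and 26.5, 26.8 and 28.7 in KO.

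In PFC the median was -0.09 against -0.02 over all genes, with 15 of 80 genes higher in KO, and 1 gene higher and 4 lower did not overlap (17.1% of all genes). Much of this rested on WT PFC replicate 3, the shallowest library (5898286 counts). Its share of counts on these genes was 0.301%, against 0.239% to 0.247% in the other PFC samples. Without it the median was 0.03 and 49 of 80 genes were higher in KO. Markers of some other cells moved the same way. All 7 oligodendrocyte genes were lower in KO, 4 of them called (edgeR), with sums of 1887, 1959 and 2524 CPM in WT and 1530 to 1635 in KO, the highest in WT replicate 3. The 6 endothelial genes (241 to 320 CPM in WT and 209 to 269 in KO) and the 5 blood genes (49.9 to 68.2 and 41.0 to 42.1) were all lower too, with 0 called, and none of the markers was at 0. Other lists did not move this way. The striatum list had sums of 240.5 to 252.9 CPM in WT and 254.4 to 271.4 in KO. The cortex list (1166 to 1410 and 1352 to 1420) and the fibroblast list (260.7 to 379.1 and 296.8 to 323.9) overlapped. The part of the markers and of library depth in the ribosomal protein values was not tested. Rpl22, which binds RNA and is found outside ribosomes too, had 107, 107 and 118 CPM in WT and 99.2, 103 and 99.1 in KO (log2 fold change -0.14, 95% interval -0.29 to 0.02). Rpl17 was at -0.47 (-1.01 to 0.08), Rpl27a at -0.17 (-0.38 to 0.04), Rps23 at 0.32 (-0.15 to 0.79), Rpl11 at 0.17 (-0.19 to 0.52) and Rpl15 at 0.09 (-0.09 to 0.26).

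**Figure D5:**
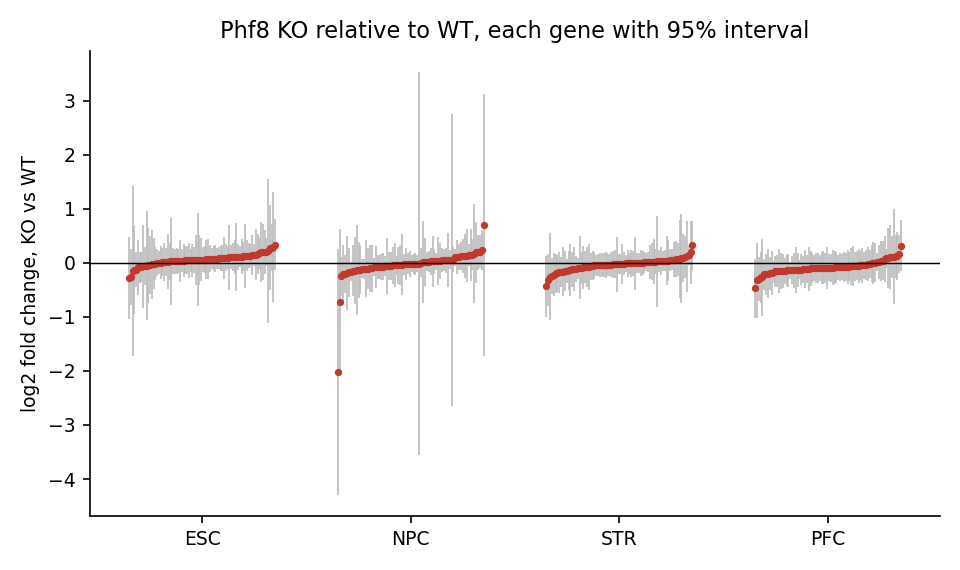
The log2 fold change of Phf8 KO relative to WT for each ribosomal protein gene tested in ESCs (84), NPCs (78), STR (80) and PFC (80), ordered by size, with 95% intervals as grey lines. Every interval holds 0, and the wide intervals in NPCs belong to genes such as Rpl34, Rps3a1 and Rpl3.

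The intervals set how large a change these samples could hide. The 95% interval of the KO effect lay within a 2-fold change in either direction for 78 of 84 genes in ESCs, 72 of 78 in NPCs, 78 of 80 in STR and 78 of 80 in PFC. It lay within a 1.5-fold change for 61, 57, 67 and 68 genes. These fits took no account of pairs. For NPCs, where same-numbered samples deviated together, a fit blocked on that number gave counts of 75 and 64 of 78. It called 0 of these genes (0.0209% of all genes), with 2 at an unadjusted p under 0.05 (edgeR). The share of all genes at that unadjusted p is not given here. For ESCs such a fit gave counts of 82 and 78 of 84. In a fit of all 22 samples with tissue as a term, 0 of 84 genes were called, where 0.0442% of all genes were by edgeR and 0.371% by DESeq2, which also called 0 of the 84, and the intervals of 83 genes lay within 2-fold and of 75 within 1.5-fold. The median was -0.03, with 28 genes higher in KO. A single gene of the 84 had an unadjusted p under 0.05, against 7.38% of all genes. It was the stalk gene Rplp2, at -0.12 on the log2 scale (SE 0.04, FDR 0.517 in edgeR), with estimates of -0.16 in NPCs, -0.14 in STR and -0.14 in PFC and no difference in ESCs beyond its SE of 0.078. Rps27l was at -0.09, Rpl27a at -0.10, Rpl15 at 0.07, Rps16 at 0.13 and Rpl37 at 0.08.

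The KO effect was also compared between tissues. For STR minus PFC 0 of 80 genes were called (0.00624% of all genes), 0 had an unadjusted p under 0.05 and DESeq2 called 0 (0.119% of all genes). Rpl5 had the smallest p (difference -0.58, 95% interval -1.27 to 0.11), followed by Rpl35a (-0.37) and Rps23 (-0.43), and Rps15a (0.15) was first in the other direction. For NPCs minus ESCs 0 of 84 were called (0% of all genes), with 0 at an unadjusted p under 0.05 and 0 by DESeq2 (0% of all genes). There Rps10 had the smallest p (-0.43, -0.88 to 0.03), and Rps16 (0.20) was first in the other direction.

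The neighbouring groups gave the same count in the KO comparison. In every tissue 0 of the translation factors, the mTOR and TOP genes, the ribosome assembly genes, the p53 response genes, the mitochondrial ribosomal protein genes and the pseudogenes were called (edgeR, 35 or 36, 21 or 22, 39, 12 or 14, 76, and 33 to 37 genes tested). An unadjusted p under 0.05 was reached by 3 mTOR and TOP genes in STR and 2 in PFC, by 3 mitochondrial ribosomal protein genes in NPCs, and by at most 1 gene of any other of these lists in a tissue, beside 8.7% (STR), 11.2% (PFC) and 3.03% (NPCs) of all genes. Rack1, a small subunit protein outside the symbol rule, was between -0.09 and 0.06 in the 4 tissues.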

How the data were processed

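RNA-seq was done on 22 samples, and 1 table per sample of read counts per Ensembl gene was used. The counts were deposited by the authors as raw, not normalized HTSeq counts of reads aligned with STAR to mm10 (CASAVA 1.7 for base calls), and reads with several alignments were left uncounted. The tables of the cultured cells are marked as not stranded. The strand setting for brain, the versions of STAR and HTSeq and the handling of duplicate reads are not given in the sources used here. Groups came from the sample labels. The ribosomal protein genes and all gene lists were chosen with earlier results of these data known. Of 39179 gene identifiers 37607, with 99.709% of counts, were matched to GENCODE M21, which gave symbols, exon lengths and coordinates on GRCm38.

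Each comparison was fitted on its own 2 groups with edgeR 4.0.16 (R 4.3.3): filterByExpr, TMM, robust quasi-likelihood test, and Benjamini-Hochberg adjustment over all genes tested, with a threshold of 0.05. All tissues were fitted together for the pooled KO effect. RPKM used the union of exons. Levels set side by side across tissues were scaled within each tissue, while fold changes between tissues came from joint fits. Unique windows were searched in GENCODE M21 transcripts on both strands, and no genome was searched. Genes were named by a fixed rule: the 10 smallest adjusted p-values among calls in each direction, or the 3 smallest p-values where fewer than 3 were called, the 5 highest and 5 lowest by RPKM, and all stalk genes, paralogues, their parents and ubiquitin fusions, with up to 4 genes from each other list. Some genes that the rule names are not reported here. Scripts were tested on simulated data. Totals of 5898286 to 15539811 counts set the precision. Intervals of counts cover counting error only.

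Same-numbered samples were treated as pairs, in an added blocked fit, where every pair's deviations correlated above 0.1. This held for STR with PFC in WT (r = 0.348, 0.181 and 0.374 across genes) and KO (0.168, 0.179 and 0.139) and for NPC KO with NPC WT (0.565, 0.697 and 0.521). The pairing there comes from the data, since the labels give only the number. ESC KO with ESC WT also passed the rule (0.870), and its block is set out below. The main values, intervals and overlaps came from fits without the block in every tissue. For KO relative to WT in NPCs the spread between samples (edgeR's common coefficient of variation) was 21.2% without and 10.1% with the block. In ESCs it was 31.4% and 4.37%. Alternatives were DESeq2 1.42.0, RLE size factors, TMM without these genes, no filter on low counts, the exact test, the replicate block with and without a GC offset, and each sample left out in turn.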

Additional observations from a re-analysis of the deposited data

How the results depend on the processing

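No called value changed direction, but the median of KO relative to WT in PFC (log2 fold change -0.09) was 0.03 without PFC WT replicate 3. The count of ribosomal protein genes called between WT STR and PFC (1) was 0 with DESeq2, 5 with the replicate block, and 0 to 4 with 1 sample left out, 4 being without PFC WT replicate 3. The count in KO (4) was 0 with DESeq2, 3 with the block and 0 to 3 with 1 sample left out. The causes were not tested. For KO relative to WT in ESCs, the replicate block called 2 genes, Rpl37 (log2 fold change 0.34, FDR 0.0337) and Rpl30 (0.20, FDR 0.0379), where 3.4% of all genes were called (edgeR). With a GC offset added it called 2 as well, Rpl30 (0.22, FDR 0.0155) and Rpl37 (0.34, FDR 0.035). With the block alone 17 genes had an unadjusted p under 0.05 (edgeR), for which no share of all genes is given here. The 95% intervals of 82 of 84 lay within 2-fold. The labels do not say what a replicate number marks in any tissue. In ESCs, with 2 pairs (r = 0.870), the block was not taken as the design, although replicate 2 of both genotypes had the high fibroblast genes. The block changed no other count by over 1.5 times. STR and PFC pairs of KO with WT did not correlate above 0.1 throughout (0.066, -0.022 and 0.131, and 0.048, -0.034 and 0.039). In all other KO comparisons 0 genes were called under every alternative. The counts that fell from ESCs to NPCs were 65 to 76 in WT and 63 to 76 in KO over the other settings, and 66 to 75 and 70 to 77 with 1 sample left out. The counts called between PFC and NPCs were 62 to 66 and 63 to 67.

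The ratio of the share of counts between WT ESCs and NPCs (2.17) was 1.87 over all reads that HTSeq reported, since fewer ESC reads were counted. The highest gene over the median gene was 32.6 in WT ESCs and 6.16 in WT PFC with the length of the longest coding transcript. Divided by the unique share, an alternative chosen after seeing the data, it was 20.5 and 10.3. With 1 sample left out it was 42.9 to 46.6 in ESCs. The median unique share was 41.7% with 36-base and 51.8% with 75-base windows. Also chosen after seeing the data were the NPC comparison without Rpl3, Rpl34 and Rps3a1 (median log2 fold change -0.02) and the animal block for the STR and PFC interaction, which called 0 genes.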
